A study of Mus musculus with 2 samples.

Results

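Hyaluronan is a long, unbranched sugar polymer of the extracellular matrix, and 10 genes that make it, bind it or break it down were followed in the mouse urogenital ridge with and without the receptor for Müllerian inhibiting substance. The genes were the synthases Has1, Has2 and Has3, the hyaluronidases Hyal1 and Hyal2, the receptor Cd44, the matrix proteins Vcan and Hapln1, and Tnfaip6 and Itih5, which belong to or act on the family of hyaluronan-linked heavy chains. All array probe sets that the platform annotation assigns to one of these genes alone were taken, which gave 25 probe sets for 9 of the 10 genes, out of 34945 such probe sets for 18193 genes. Hyal1 had none of its own, because its 2 probe sets are also assigned to Naa80, and it has no value here. The members were selected on their known roles and with earlier results of these arrays in view, among them the difference of Tnfaip6 between the same pools, so the values below describe the genes and test nothing.

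RNA came from ridges of mouse embryos at E14.5 (embryonic day) from which the gonads had been discarded. One pool of about 100 ridges was heterozygous (Misr2+/-) and described as responsive to Müllerian inhibiting substance (MIS), and 1 pool of about 100 ridges was homozygous (Misr2-/-) and described as unresponsive. Misr2, listed as Amhr2 on the array, encodes the type II receptor for MIS, a hormone of the fetal testis under which the Müllerian duct regresses. The labels used here give no sex for the embryos. Both pools had the same mixed strain background (C57Bl/6 and 129SVEV), both carried at least 1 deleted copy of Misr2, no ridges with 2 intact copies were compared, and genotype was scored with a YFP reporter. Each pool was hybridised to 1 Affymetrix array, so there is no replicate, no standard error and no test between the genotypes.

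Hyaluronan is made at the plasma membrane, where a synthase joins the sugars of UDP-glucuronic acid and UDP-N-acetylglucosamine and extrudes the chain. Proteoglycans such as versican bind the chain through Link modules, link proteins hold that bond, and TSG-6, the product of Tnfaip6, moves heavy chains of inter-alpha-inhibitor onto hyaluronan and so cross-links it. Cells hold the polymer through CD44, and hyaluronidases cut it. In embryos hyaluronan with versican forms the loose, hydrated matrix through which mesenchymal cells move, and mouse embryos without Has2 or without Vcan die with heart defects.

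Amhr2 was checked first. The brightest of its probe sets had a signal of 1549.6 in Misr2+/- and 10.2 in Misr2-/- ridges, which follows the labels. Signals are linear intensities as deposited, and the median was 116.5 on the heterozygous and 139.4 on the homozygous array. This median served as a floor. A probe set counted as measured when it reached the floor on at least 1 array, lower signals were set to the floor, and 11432 genes were measured. The log2 difference is homozygous minus heterozygous after the shift of 0.26 between the array medians was removed. As deposited every such value is higher by 0.26, and scaled to the 18 hybridisation spike probe sets it is lower by 0.40. The difference between a gene's 2 brightest measured probe sets corresponds, over 5264 genes, to an SD of 0.23 (log2), which covers technical noise within these arrays and not the variation between pools. The ratio of 3′ to 5′ signal was 0.809 and 0.852 for Gapdh and 1.16 and 1.21 for beta-actin, with the Misr2+/- ridges first.

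Of the 9 genes, 7 were measured, with 17 of their 25 probe sets. Tnfaip6 was the 1 gene at least 1.5-fold higher in the homozygous pool (0.58 on the log2 scale), where 2.03% of all measured genes were that much higher, and 0 genes were at least 1.5-fold lower, where 0.883% were. The other 6 lay between -0.55 and 0.19. The median of the 7 was 0.03 (0.29 as deposited and -0.38 against the spikes), beside 0.04 for all measured genes. Relative to the array medians 4 of the 7 were above and 3 below 0, while 57.6% of all measured genes were above 0. Has1 and Has3 were under the floor in both pools.

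**Figure D1:**
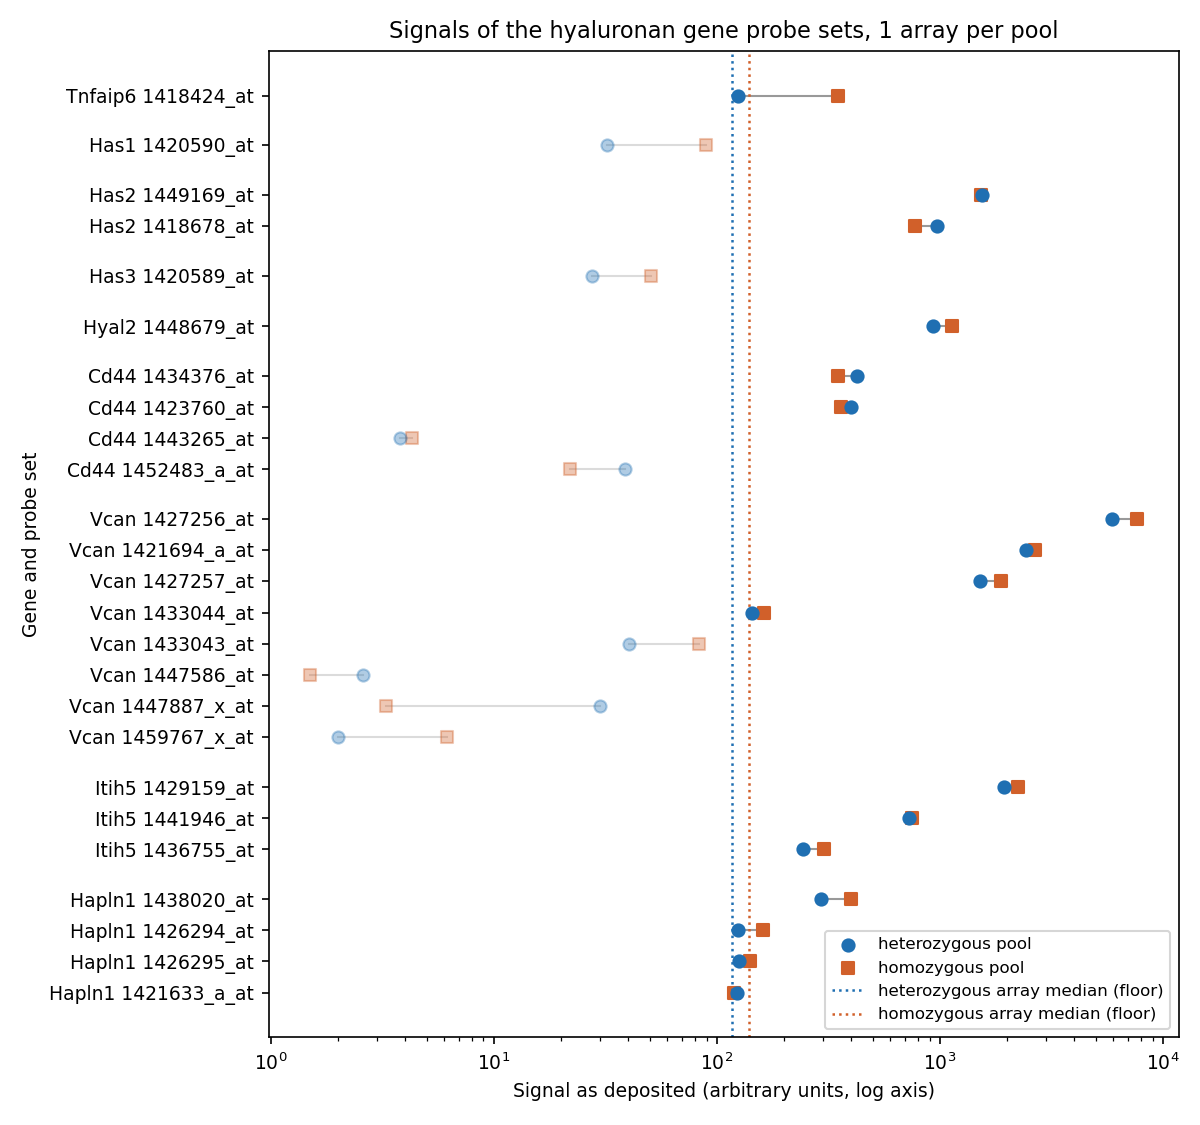
Signal as deposited (log axis, arbitrary units) of each of the 25 probe sets in the heterozygous (circles) and homozygous pool (squares), with 1 array per pool and the array medians as dotted lines; pale symbols are under the floor in both pools. Tnfaip6 is the pair that lies farthest apart among the 17 measured probe sets, with 124.6 against 348.

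Tnfaip6 encodes the secreted hyaluronan-binding protein TSG-6, which inflammatory signals induce in many cells. Its 1 probe set (1418424_at) had a signal of 124.6 in Misr2+/- and 348 in Misr2-/- ridges. The heterozygous signal lay just above the floor of 116.5, and the homozygous signal well above that of its array. The homozygous pool was 2.33-fold higher, a log2 difference of 1.22 (1.48 as deposited and 0.82 against the spikes), and 0.105% of measured genes had a value as high or higher. The authors' deposited table of 739 probe sets also lists it, with intensities of 135.8 and 313.4 and a fold of 2.31, and it holds none of the other 24 probe sets. No second probe set was there to set against this one. With the floor at the 60th percentile of each array the heterozygous signal falls under it and the difference becomes a bound of at least 0.46, short of 1.5-fold, and with the floor at the 75th percentile Tnfaip6 is not measured.

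The partners of TSG-6 were not all measured. The heavy chains that it moves onto hyaluronan come from Itih1, Itih2 and Itih3, and the bikunin chain that first carries them comes from Ambp. Signals of Itih1 were 8.4 and 18.2, of Itih2 23.7 and 35.5, of Itih3 1.7 and 16, and of Ambp 19.9 and 35.6, all under the floor. The related Itih4 was also under it, at 3.6 and 12.1. Ptx3, a pentraxin that TSG-6 binds in the hyaluronan matrix around the ovulated egg, had signals of 511.1 and 778.1 and a log2 difference of 0.35, which turns to -0.06 against the spikes.

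Itih5, a further member of the heavy chain family, was measured by 3 probe sets. The brightest had signals of 1947.8 in Misr2+/- and 2236.9 in Misr2-/- ridges, and its log2 difference was -0.06, which turns to 0.20 as deposited. A further Itih5 probe set went from 729.2 to 750.6, and the dimmest from 243.9 to 302.9, with values of -0.22 and 0.05. Relative to the array medians all 3 were smaller in size than the SD of 0.23 between probe sets of a gene, while against the spikes they ran from -0.62 to -0.35. It lies on chromosome 2, as do Tnfaip6 and Cd44.

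Of the synthases, Has2 was the measured one. Has2 is the main hyaluronan synthase of the mouse embryo. Its brighter probe set (1449169_at) had signals of 1554.1 in Misr2+/- and 1535.1 in Misr2-/- ridges, and its dimmer one (1418678_at) had signals of 971.7 and 770.6. Both were lower in the homozygous pool even as deposited, at -0.02 for the first and -0.33 for the second. Relative to the array medians their log2 differences were -0.28 and -0.59, so that the dimmer probe set alone passed 1.5-fold. The gap of 0.32 between them was as large or larger in 29.5% of genes with 2 measured probe sets. Represented by its brighter probe set, Has2 was 1.21-fold lower, with -0.02 as deposited and -0.68 against the spikes, and 6.28% of measured genes were as low or lower. Has2 lies on chromosome 15, as does Amhr2.

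Has1 and Has3, the other two synthases, gave signals under the floor in both pools. Has1 read 32.2 and 89.1 and Has3 27.5 and 50.8, with the Misr2+/- ridges first. No fold is given for either, since signals under the floor have no order here.

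The enzymes that supply the sugars had values near 0, with 1 exception. All 8 listed genes of this pathway were measured, 4 were above and 4 below 0 relative to the array medians, and their median was -0.00 (0.26 as deposited). None was 1.5-fold higher or lower. Gfpt2, an isoform of the enzyme that commits glucose to the hexosamine pathway, had signals of 270.4 and 459.6, and at 1.42-fold higher (0.51, and 0.10 against the spikes) it had the value farthest from 0 in its list. Ugp2, which makes UDP-glucose, had a value of 0.15 (-0.26 against the spikes). Ugdh, which turns UDP-glucose into UDP-glucuronic acid, had signals of 2726.3 and 2966.6 and a value of -0.14 (0.12 as deposited).

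Cd44, the main cell surface receptor for hyaluronan, was lower in the homozygous pool by both of its measured probe sets. Signals were 427.2 (Misr2+/-) and 350 (Misr2-/-) for the brighter (1434376_at), and 399.9 and 362.1 for the other (1423760_at). The homozygous signal was the lower of each pair even though the homozygous array was brighter. Relative to the array medians the log2 differences were -0.55 and -0.40. The first is 1.46-fold lower, just short of the 1.5-fold threshold, and 1.06% of measured genes were as low or lower. It was -0.29 as deposited and -0.95 against the spikes. The remaining 2 Cd44 probe sets stayed under the floor, with signals of 38.8 and 22 and of 3.8 and 4.3.

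Leukocytes carry much CD44, so macrophage markers are given beside it. All 11 listed markers were measured, 9 were below 0, and their median was -0.12 (positive as deposited, at 0.14). Their summed signal was 9631.6 in Misr2+/- and 10410.5 in Misr2-/- ridges, a log2 difference of -0.15 after the shift. Cx3cr1, a chemokine receptor, was the 1 marker at least 1.5-fold lower, where 0.883% of all measured genes were. It had signals of 769.9 and 502.5 and a value of -0.87, but its other measured probe set read -0.31. Ptprc, the pan-leukocyte marker CD45, had a value of -0.02 (0.24 as deposited). The part of these markers in the Cd44 difference was not tested. In pooled tissue fewer cells of a type and less RNA per cell cannot be told apart.

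The other hyaluronan receptors and binding proteins lay close to 0. Of 10 listed, 6 were measured, and none was 1.5-fold higher or lower. Their median was 0.02 (-0.38 against the spikes). Lyve1, the receptor of lymphatic endothelium and some macrophages, had signals of 249.3 and 313.9 and a value of 0.07 (-0.33 against the spikes). The scavenger receptor gene Stab1 had a value of 0.04 (-0.36 against the spikes). C1qbp, a mitochondrial protein also described as a hyaluronan binder, had the value farthest from 0 of this list at -0.22 (0.04 as deposited), but its other probe set read 0.05. Stab2, Layn, Habp2 and Tlr4 were under the floor in both pools. Endothelial markers, which Lyve1 and Stab1 overlap in part, were all 10 measured, with a median of 0.18 (-0.22 against the spikes). Relative to the array medians 7 were above and 3 below 0. Their summed signals were 7341.6 and 9071.6, a log2 difference of 0.05 after the shift.

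The promoters of the gene that was higher and of the receptor that was lower by both probe sets are shown as the 250 bases before the annotated start, from RefSeq on GRCm38.p6, 5′ to 3′. The table used holds promoters of 8 of the 10 genes, without Has2 and Has3. Capitals mark the letters TGANTCA, the site bound by AP-1 (Fos and Jun), and no other motif searched was found in either. Tnfaip6 lies at chr2:52037863-52038112 on the plus strand and Cd44 at chr2:102901666-102901915 on the minus strand.
Tnfaip6: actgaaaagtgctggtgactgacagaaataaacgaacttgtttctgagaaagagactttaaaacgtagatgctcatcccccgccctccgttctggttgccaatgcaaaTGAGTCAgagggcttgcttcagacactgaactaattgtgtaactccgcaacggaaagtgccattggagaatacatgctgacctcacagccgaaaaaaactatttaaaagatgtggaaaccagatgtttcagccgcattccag
Cd44: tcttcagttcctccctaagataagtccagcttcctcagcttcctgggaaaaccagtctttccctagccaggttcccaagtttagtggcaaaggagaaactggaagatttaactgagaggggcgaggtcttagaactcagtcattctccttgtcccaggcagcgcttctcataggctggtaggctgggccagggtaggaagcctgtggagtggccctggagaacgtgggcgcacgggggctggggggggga
Tnfaip6 held 1 AP-1 match, which starts 142 bases before the start, and it was the 1 of the 8 promoters with one, where 6.87% of 27025 promoters of the same length hold it. Searched on both strands, the letters GGCGCC, the form of the GC-rich element that Smad1 and Smad5 bind, were in 0 of the 8 (9.47% of all promoters). The variant GGAGCC was in those of Hyal2 and Itih5 (25.6%), TATAAA in 0 (12.9%) and the C/EBP letters TTGCNNAA in 0 (9.53%). The matches did not overlap each other. The Tnfaip6 promoter was the one of lowest GC content among the 8, at 44.4%, beside 56.4% for Cd44, 62.4% for Vcan and a median of 52.0% over all promoters. A match is a description of the letters and not of a bound site.

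**Figure D2:**
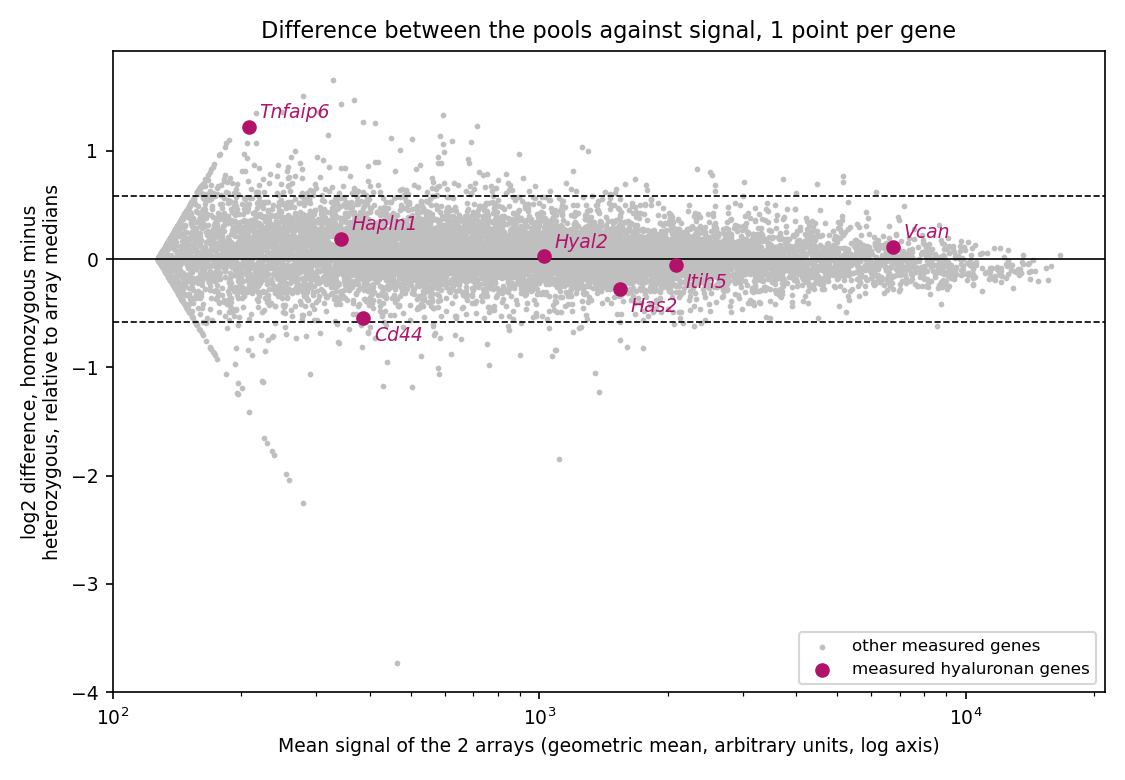
Log2 difference (homozygous minus heterozygous, relative to the array medians) against the geometric mean signal of the 2 arrays (log axis) for 11432 measured genes (grey) and the 7 measured hyaluronan genes (coloured); dashed lines mark 1.5-fold. Tnfaip6 lies at 1.22 near the floor, Cd44 at -0.55, and the others between -0.28 and 0.19.

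Vcan encodes versican, the large proteoglycan that binds hyaluronan in loose mesenchyme, and it was measured by 4 of its 8 probe sets. Its brightest (1427256_at) had signals of 5936.7 in Misr2+/- and 7694.1 in Misr2-/- ridges. The others measured went from 2445.2 to 2672.7, from 1515.4 to 1887.1 and from 144.2 to 162.9. All 4 signals were higher in the homozygous pool as deposited, but relative to the array medians the values ran from -0.13 to 0.12, with 2 on each side of 0. On that scale all 4 were smaller in size than the SD of 0.23. The gene's own value was 0.12, which turns to -0.29 against the spikes, where the 4 ran from -0.53 to -0.29. The remaining 4 Vcan probe sets were under the floor in both pools. Vcan lies on chromosome 13, as does Hapln1.

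Hapln1 encodes the link protein that stabilises the bond between hyaluronan and versican or aggrecan. Its brightest probe set (1438020_at) had signals of 293.4 in Misr2+/- and 399.9 in Misr2-/- ridges, a log2 difference of 0.19 (-0.22 against the spikes). The other 3 were near the floor, at 125 and 161.5, at 125.8 and 140.4, and at 123.5 and 119.7. The last signal, 119.7, lay under the floor of the homozygous array and was set to it. The value of that probe set, -0.08, is therefore an upper bound. The other values ran from -0.10 to 0.19. On that scale none of these exceeded the SD of 0.23 in size, while against the spikes they ran from -0.50 to -0.22. Of the related genes Hapln3 had signals of 292.2 and 385 and a value of 0.14 (-0.27 against the spikes). Hapln2 and Hapln4, the link proteins of nervous tissue, were under the floor, as were the proteoglycan genes Acan, Bcan and Ncan. Of the 12 further matrix proteins listed, Ptx3 and Hapln3 were thus the 2 measured, and their median was 0.24 (-0.16 against the spikes). Of the 8 cartilage markers, in a tissue type rich in Hapln1 and Acan, 1 was measured, Col9a1, at 142.8 and 138.3.

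Proteases of the ADAMTS family that cut versican were all 6 measured. Relative to the array medians 5 were below 0, and the median was -0.17 (positive as deposited, at 0.09), and none was 1.5-fold higher or lower. Adamts15 had signals of 428.8 and 427.6 and a value of -0.26 (-0.00 as deposited). Adamts1 and Adamts5 had values of -0.23 and -0.22 (0.03 and 0.04 as deposited), and the 3 measured probe sets of Adamts5 ran from -0.72 to -0.22. Adamts20 was the 1 above 0, at 0.08 (-0.32 against the spikes).

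Hyal2, a membrane-anchored hyaluronidase that cuts long chains, had a value near 0. Its 1 probe set had signals of 930.5 in Misr2+/- and 1134 in Misr2-/- ridges, a log2 difference of 0.03 (0.29 as deposited and -0.38 against the spikes). About as many measured genes were higher as were lower, with 47.9% as low or lower.

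Of 10 further breakdown enzymes 9 had a probe set of their own and 3 were measured, all below 0, with a median of -0.29 (-0.03 as deposited). Cemip2, a cell surface hyaluronan-degrading protein in the mouse, had signals of 1662.7 and 1395.4 and was 1.43-fold lower (-0.51, and -0.25 as deposited), but its other measured probe set was higher at 0.27 (-0.14 against the spikes). Hexa, a lysosomal enzyme that removes end sugars, went from 3319.6 to 3246.3, a value of -0.29 (-0.03 as deposited). Gusb, which removes glucuronic acid, had a value of -0.05 (0.21 as deposited). Hyal3, Hyal4, Hyal5, Hyal6, the sperm hyaluronidase Spam1, and Cemip, which binds hyaluronan and aids its depolymerisation, were under the floor in both pools.

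Taking the lists of further hyaluronan genes together, 25 of 46 were measured, 12 above and 13 below 0, with a median of -0.02 (0.24 as deposited). None was 1.5-fold higher and none 1.5-fold lower, where 2.03% and 0.883% of all measured genes were. At a looser threshold of 0.32 on the log2 scale 2 were higher (Gfpt2 and Ptx3) and 1 lower (Cemip2), where 10.2% and 4.34% of all measured genes were.

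**Figure D3:**
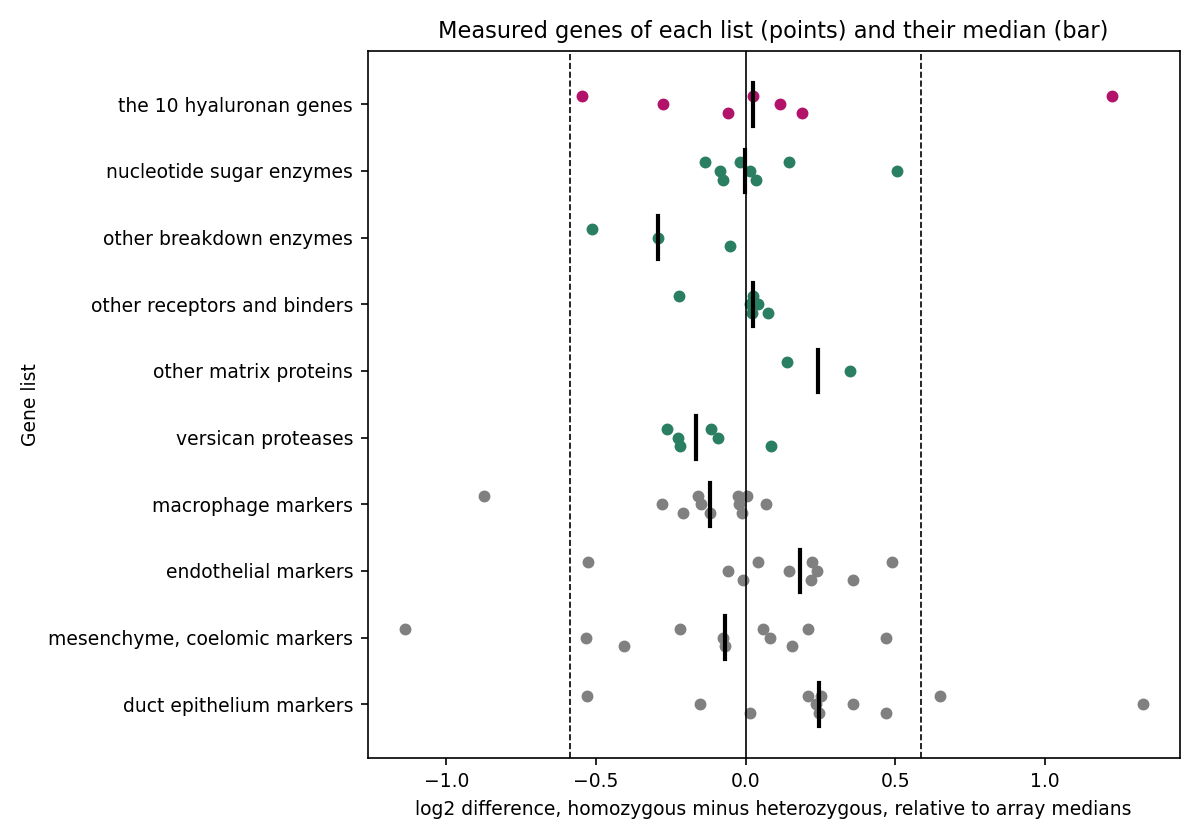
Log2 difference (homozygous minus heterozygous, relative to the array medians) of each measured gene, as points, and the median of each list, as a bar; dashed lines mark 1.5-fold, and grey rows are cell type markers. The 25 further hyaluronan genes (green) all lie between -0.51 and 0.51, and Tnfaip6 at 1.22 is the 1 hyaluronan gene outside the lines.

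Has2 and Vcan are genes of mesenchyme, so markers of the ridge mesenchyme and coelomic epithelium are given beside them. Of 13 listed, 11 were measured, with a median of -0.07 (positive as deposited, at 0.19). Relative to the array medians 5 were above 0 and 6 below. Summed over all 13, signals were 26867 (Misr2+/-) and 30649.4 (Misr2-/-), a log2 difference of -0.07 after the shift. Tcf21, a mesenchymal transcription factor, went from 6099 to 6954.2, a value of -0.07 (0.19 as deposited), and its other probe set read -0.51. Pdgfra, a receptor of mesenchymal cells, had probe sets from -0.97 to 0.13. Osr1 was the 1 marker at least 1.5-fold lower, with signals of 304.4 and 165.4, where 0.883% of all measured genes were. The highest values in this list were those of Emx2 at 0.47 and Wt1 at 0.21 (0.06 and -0.20 against the spikes). Markers of duct epithelium were measured for 11 of 13, and their median was 0.24 (-0.16 against the spikes). Their summed signals were 12441.6 and 17901.9, a log2 difference of 0.27 after the shift. Relative to the array medians 9 were above 0 and 2 below, Gata3 at -0.53 and Wnt9b at -0.15. Emx2 is in both the mesenchyme and the duct list, and enters the counts, medians and sums of both. Sall1, a zinc finger transcription factor, and Wnt7a, a ligand of the duct epithelium, were the 2 genes of the duct list at least 1.5-fold higher. Of all measured genes 2.03% were that much higher. Sall1 went from 342.2 to 1027.4 by the 1 measured of its 2 probe sets, a log2 difference of 1.33 (0.92 against the spikes). Wnt7a went from 444 to 832.9, a difference of 0.65 (0.24 against the spikes), and its other measured probe set read 0.22. What these markers contribute to the values of the hyaluronan genes was not tested.

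**Figure D4:**
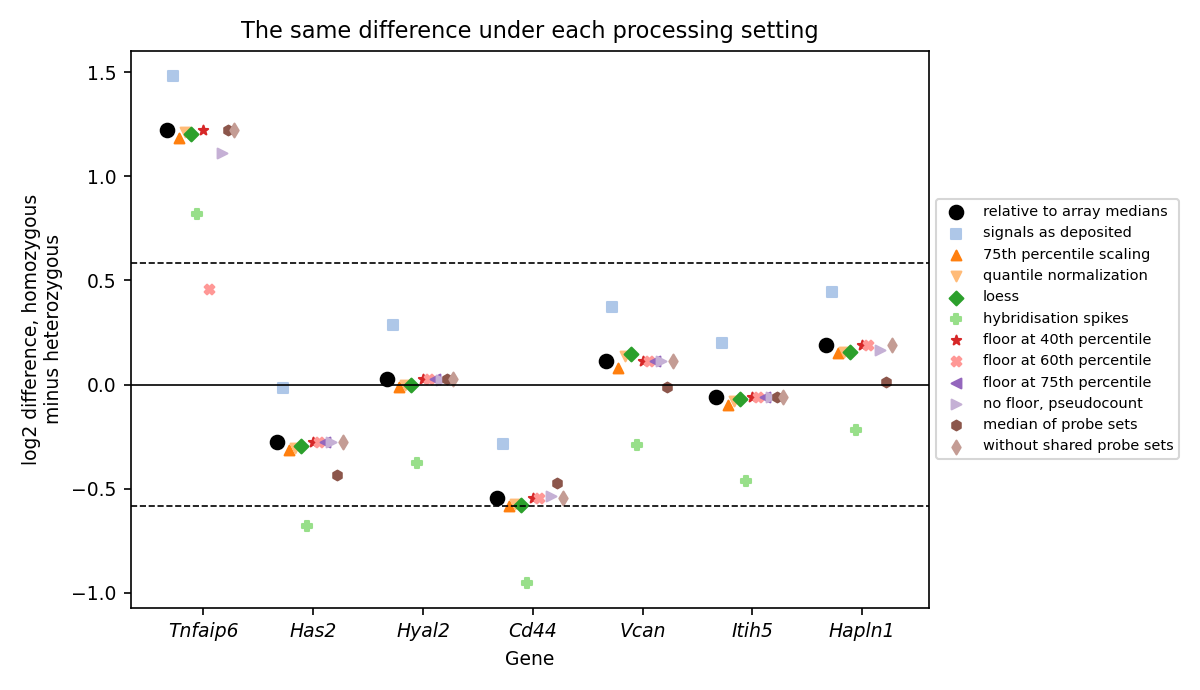
Log2 difference (homozygous minus heterozygous) of the 7 measured hyaluronan genes under the setting used in the text (black) and 11 others; dashed lines mark 1.5-fold. Tnfaip6 stays above 0 under the 10 in which it was measured, Has2 below 0 under all 11 and Cd44 under its 10, whereas Hyal2, Vcan, Itih5 and Hapln1 each change sign under at least 1. Some settings cannot move a given gene. Has2 keeps its -0.28 with the floor at the 40th, 60th or 75th percentile. Tnfaip6, with 1 probe set, keeps its 1.22 under the median of probe sets.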

How the data were processed

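RNA of 2 pools of ridges, 1 array each, was analysed. The authors' deposited value table gives each probe set 1 linear intensity on each array. GCOS and MAS5 appear, per the submitters' processing notes, with no role or version. The sources used here give neither the scaling of the arrays nor a genome build. The authors' deposited table of fold changes, a signed fold used here as a score, holds intensities equal to the value table times 0.901 for the homozygous and 1.09 for the heterozygous array. Every fold in it was at least 2 in size.

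Of 45101 probe sets 64 were controls, 34945 others had 1 gene symbol in the platform annotation, 932 several and 9160 none listed. A gene's value comes from its probe set with the highest mean of the floored log2 signals. The arrays' number limits the precision, and the groups follow the genotype labels. The members and the gene lists were chosen with earlier results of these data known. Named are all 10 genes with their probe sets, Amhr2, and of each further hyaluronan list every gene past 1.5-fold or else up to 3 with the largest difference. Any other gene named was picked once its value was known. The procedure was tested on simulated data. Python 3.11.15, numpy 2.4.6, pandas 2.3.3 and statsmodels 0.14.6 were used. Alternatives were other scalings, floors at other percentiles or none (pseudocount of 16), a gene's median probe set value, omission of probe sets marked as shared, and other fold thresholds.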

Additional observations from a re-analysis of the deposited data

How the results depend on the processing

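With 1 array per genotype nothing here has a replicate check, and a gene with 1 probe set, as Tnfaip6 and Hyal2 have, has no second reading. Signals as deposited moved the median of the 7 genes to 0.29 and put 2 further hyaluronan genes (Gfpt2 and Ptx3) of 25 at least 1.5-fold higher, where 9.97% of all measured genes were on that scale. Scaling to the hybridisation spikes moved that median to -0.38, with 2 of the 7 genes (Has2 and Cd44) and 6 of the 25 further hyaluronan genes at least 1.5-fold lower, where 12.7% of all measured genes were. With the floor at the 60th or the 75th percentile 0 of the genes were at least 1.5-fold higher, since the heterozygous signal of Tnfaip6 lay under those floors. At the 75th percentile 4 of the genes were measured. At a looser threshold of 0.32 on the log2 scale Tnfaip6 was still the 1 gene higher, and 1 gene (Cd44) was lower. Of the further genes 2 were higher and 1 lower, where 10.2% and 4.34% of all measured genes were. At 2-fold, which 0.227% of all measured genes passed upwards and 0.21% downwards, Tnfaip6 was again the 1 gene higher and 0 were lower. Over the alternatives the differences ran from 0.46 to 1.48 for Tnfaip6, from -0.68 to -0.02 for Has2 and from -0.95 to -0.29 for Cd44. The SD between probe sets of a gene ran from 0.20 to 0.35. With the floor at the 40th percentile the homozygous signal of Has1 passed it, with a bound of at least 0.17 set by the floor of the heterozygous array. No paired analysis was possible because each group has 1 array.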

Other observations

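Markers of other cell types that the ridges could hold are given here as values. Of 8 germ cell markers 5 were measured, all below 0, with a median of -1.07. The homozygous signals of Ddx4 and Pou5f1 were under the floor, so their values of -0.38 and -0.004 are upper bounds. Summed over all 8, those under the floor included, signals were 1401.6 in Misr2+/- and 765.6 in Misr2-/- ridges. Of 9 fetal Sertoli and Leydig cell markers 6 were measured, also all below 0, with a median of -0.54. The values of Dhh (-0.22) and Defb19 (-0.66) are upper bounds for the same reason. Summed over the 8 with a probe set of their own, measured or not, signals were 1392.2 and 1175.4. Amh was under the floor at 19 and 5.5. Both medians stay below 0 as deposited, at -0.81 and -0.28. Of the metanephric kidney markers 1 of 8 was measured (Lrp2), and Six2 was under the floor in both pools. Smooth muscle markers were measured for 4 of 6, and their median was 0.08 (-0.33 against the spikes), and blood cell markers for 3 of 5, where it was 0.37 (-0.03 against the spikes). The Y-linked gene Eif2s3y had signals of 1199.7 and 1541.9, and Xist was under the floor in both pools by all 3 of its probe sets.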
